A study of Mus musculus with 9 samples.

Results

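Expression of 10 immediate-early genes, Egr1, Egr2, Egr3, Nr4a1, Ier2, Ier3, Ier5, Dusp1, Ppp1r15a and Zfp36, was measured by bulk RNA-seq in mouse bone marrow megakaryocyte-erythroid progenitors (MEPs). The members were taken by name, as the rows of the count table whose Ensembl identifier carries their symbol, and all 10 were found among 35275 genes. The MEPs were Lin-, c-kit+, CD34- and FcγRII/III low, and were sorted by binding of HS3A8, a single-chain antibody fragment (scFv) against heparan sulfate, a sulfated sugar chain of the cell surface. HS3A8-high cells were those above and HS3A8-low cells those below the median of binding. The third group, the MPB49 control, was mock-sorted with an scFv that has no known epitope and represents total MEPs. Each group had 3 libraries of 25000 cells per condition. No treatment or genotype separates the groups, and the strain and age of the mice are not given in the labels. The question asked of these genes was how their levels stand in both fractions, and where each control library lies between them.

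Immediate-early genes are transcribed within minutes of a signal such as a growth factor, cell contact or mechanical stress, from transcription factors that are already present in the cell. Their mRNAs and proteins are short-lived, and several members switch the response off again: Dusp1 dephosphorylates MAP kinases, and Zfp36 (tristetraprolin) binds AU-rich elements of mRNAs and speeds their decay. They are also known to be induced when tissue is dissociated and cells are sorted. All 9 libraries came from sorted cells, and the part of handling in the levels was not tested.

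The serum response factor acts on many such promoters through the CArG box, CREB acts through the cyclic AMP response element (CRE, TGACGTCA, with the core TGACG on either strand), and EGR proteins bind GCGNGGGCG. These motifs were searched on both strands in the 250 bases before each RefSeq transcription start (GRCm38.p6). The promoter table had windows for 7 members, Dusp1, Egr2, Ier3, Ier5, Nr4a1, Ppp1r15a and Zfp36. The 4 windows of tested members that held any of these motifs are shown so that the motifs can be read in place, 5′ to 3′ on the strand of the gene, with the motif letters in capitals. The Dusp1 window is chr17:26508473-26508722 (minus strand), the Nr4a1 window chr15:101266596-101266845 (plus strand), the Zfp36 window chr7:28379229-28379478 (minus strand) and the Ppp1r15a window chr7:45526269-45526518 (minus strand).
Dusp1: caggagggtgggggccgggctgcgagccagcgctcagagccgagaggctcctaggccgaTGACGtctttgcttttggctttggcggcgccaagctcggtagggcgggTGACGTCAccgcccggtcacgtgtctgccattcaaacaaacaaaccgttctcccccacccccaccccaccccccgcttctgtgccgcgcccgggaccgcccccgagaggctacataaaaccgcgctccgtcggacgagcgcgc
Nr4a1: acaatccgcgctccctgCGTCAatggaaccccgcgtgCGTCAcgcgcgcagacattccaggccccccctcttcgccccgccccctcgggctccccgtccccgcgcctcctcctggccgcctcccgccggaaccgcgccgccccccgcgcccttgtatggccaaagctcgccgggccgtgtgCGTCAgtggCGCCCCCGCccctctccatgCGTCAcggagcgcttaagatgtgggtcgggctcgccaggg
Zfp36: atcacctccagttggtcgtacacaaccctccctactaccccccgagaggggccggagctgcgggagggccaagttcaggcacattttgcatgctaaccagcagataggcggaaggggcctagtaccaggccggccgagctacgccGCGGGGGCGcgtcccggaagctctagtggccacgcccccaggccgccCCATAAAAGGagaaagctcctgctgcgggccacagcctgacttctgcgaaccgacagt
Ppp1r15a: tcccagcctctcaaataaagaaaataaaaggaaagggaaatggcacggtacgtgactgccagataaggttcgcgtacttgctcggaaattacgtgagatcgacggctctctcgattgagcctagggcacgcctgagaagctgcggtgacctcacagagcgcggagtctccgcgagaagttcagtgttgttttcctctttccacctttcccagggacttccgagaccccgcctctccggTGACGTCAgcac
The Ppp1r15a window ends where the annotated gene begins, whereas the other windows lie inside the annotated span of their gene, which starts further upstream in longer transcripts.

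Dusp1 held a CRE that begins 143 bases before the start and 1 further TGACG core 191 bases before it. Ppp1r15a held a CRE 12 bases before the start. Nr4a1 held 4 TGACG cores, 233, 213, 69 and 40 bases before the start, and an EGR site at 60 bases. Zfp36 held a CArG box at 58 bases and an EGR site at 105 bases. The CRE stood in 1.55% of all 32851 windows of this length, the CArG box in 1.47%, the EGR site in 4.7% and the TGACG core, which every CRE also contains, in 17.8%. Of the 7 members with a window, 2 held a CRE, 2 a CArG box (Egr2 and Zfp36), 2 an EGR site and 4 a TGACG core. A member was counted if any of its windows held the motif, whereas the shares are of single windows. Egr2 had several windows, so its matches are not on the same base as these shares. The windows of Ier3 and Ier5 held none of these letters. A match describes the sequence and is not evidence that a factor binds there.

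The libraries held 11781637 to 15850037 counts and detected 13936 to 15659 genes. Levels are counts scaled to the library total (CPM). Where a gene had 0 counts, the limit was set at 3 counts, or 0.189 to 0.255 CPM by library, for counting error only. MPB49 control replicate 1 stood apart from the other libraries. Ribosomal protein genes took 10.87% of its counts, against 3.9% to 6.14% elsewhere, and its mean correlation with the other control libraries was the lowest within any group (r = 0.9293 over log2 CPM). Library number 3 of both sorted fractions carried granulocyte and monocyte transcripts at far higher levels than the other libraries of its group, with values given beside the marker lists. Results are therefore given with and without these libraries where they change. Levels are in CPM scaled by TMM (library totals adjusted by the trimmed mean of M values) over all 9 libraries, and in this text the values of a group follow the replicate numbers 1, 2 and 3. The study describes the sorted fractions as coming from individual mice, and for the control the sources used here do not say so, so p-values against the control measure the spread between these libraries, which may be technical.

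Egr1 (ENSMUSG00000038418, chr18:34859823-34864984, plus strand) encodes a zinc finger transcription factor that is a first target of MAP kinase signalling. Its level was 23.2, 10.01 and 13.9 CPM in HS3A8-high MEPs and 204, 109 and 79.2 CPM in HS3A8-low MEPs. The control libraries had 114, 49.9 and 44.2 CPM. The lowest HS3A8-low library was above the highest HS3A8-high library, and the control lay between both fractions except for replicate 1, which was above HS3A8-low replicates 2 and 3. The mean fell from 131 ± 65.1 CPM in HS3A8-low to 15.7 ± 6.79 in HS3A8-high (SD, n = 3), a log2 fold change of -3.08 (SE 0.453, adjusted p = 0.0253, edgeR quasi-likelihood test). Replicate 1 was the highest library in every group for Egr1, which was not the case for any other member.

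Egr2 (ENSMUSG00000037868, chr10:67535475-67542188, plus strand) and Egr3 (ENSMUSG00000033730, chr14:70077203-70082614, plus strand), the nearest relatives of Egr1, were at or near the floor. Egr2 had 0, 0 and 8 counts in HS3A8-high, 11, 0 and 3 counts in HS3A8-low and 1, 0 and 1 counts in the control. Egr3 had 0 counts in 7 of the 9 libraries and 1 count in each of HS3A8-low replicates 1 and 3. Both genes were removed by the filter on low counts, so neither was tested and no fold change is given.

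Nr4a1 (ENSMUSG00000023034, chr15:101254269-101274795, plus strand), also called Nur77, is an orphan nuclear receptor without a known physiological ligand that is controlled through its own transcription. It had 1.07, 0.376 and 4.43 CPM in HS3A8-high and 17.8, 16.3 and 18.5 CPM in HS3A8-low. The control libraries had 23.1, 5.29 and 4.91 CPM. The fractions did not overlap, but the HS3A8-high libraries differed among themselves by more than the HS3A8-low libraries did. The log2 fold change of HS3A8-high over HS3A8-low was the most negative of the members in this fit, at -3.18 (SE 0.759), and did not pass the test (adjusted p = 0.0718). With the replicate number as a block it passed (adjusted p = 0.0214), and without HS3A8-high replicate 3 it was -4.57 (adjusted p = 0.00879). Its family member Nr4a2 did not separate the fractions, with 7.005 ± 1.78 CPM (n = 3) in HS3A8-high against 7.447 ± 1.55 in HS3A8-low (log2 fold change -0.12, SE 0.283, adjusted p = 0.862).

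Ier2 (ENSMUSG00000053560, chr8:84661331-84662852, minus strand) encodes a small nuclear protein from a single exon. It had 117, 107 and 149 CPM in HS3A8-high, 279, 262 and 275 CPM in HS3A8-low and 359, 162 and 183 CPM in the control. Control replicate 1 was above all HS3A8-low libraries, and the other control libraries lay between the fractions. The log2 fold change of HS3A8-high over HS3A8-low was -1.16 (SE 0.13, adjusted p = 0.0128).

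Ier3 (ENSMUSG00000003541, chr17:35821684-35822923, plus strand), also called IEX-1, acts in cell survival under stress. It had 10.04, 8.35 and 9.65 CPM in HS3A8-high, 30.9, 31.2 and 33.6 CPM in HS3A8-low and 34.8, 20.6 and 22.9 CPM in the control. Both sorted fractions were tight for this gene, and the control again held 1 library just above HS3A8-low and a pair below it. HS3A8-high was lower by a log2 fold change of -1.80 (SE 0.155, adjusted p = 0.00712).

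Ier5 (ENSMUSG00000056708, chr1:155096361-155099636, minus strand), a regulator of heat shock factor activity, was the exception among the tested members. It had 16.1, 18.4 and 27.8 CPM in HS3A8-high, 22.1, 32.2 and 39.9 CPM in HS3A8-low and 41.7, 24.5 and 28.8 CPM in the control. The groups overlapped, since HS3A8-high replicate 3 was above HS3A8-low replicate 1. The difference was a log2 fold change of -0.62 (SE 0.283, adjusted p = 0.287). Within each number the HS3A8-low library was the higher, by 1.38-fold to 1.75-fold, and the fit with the replicate block gave an adjusted p of 0.0375.

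Dusp1 (ENSMUSG00000024190, chr17:26505590-26562128, minus strand), the nuclear phosphatase of MAP kinases, had 114, 121 and 171 CPM in HS3A8-high, 401, 386 and 422 CPM in HS3A8-low and 482, 210 and 220 CPM in the control. The lowest HS3A8-low library exceeded every HS3A8-high library. This was a log2 fold change of -1.60 (SE 0.159, adjusted p = 0.00868).

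Ppp1r15a (ENSMUSG00000040435, chr7:45522916-45526268, minus strand), also called GADD34, directs a phosphatase to eIF2α and so restores translation after stress. It had 88.2, 75.4 and 86.4 CPM in HS3A8-high, 173, 175 and 193 CPM in HS3A8-low and 322, 108 and 121 CPM in the control. Control replicate 1 was the highest of all 9 libraries. The log2 fold change of HS3A8-high over HS3A8-low was -1.14 (SE 0.0972, adjusted p = 0.00712).

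Zfp36 (ENSMUSG00000044786, chr7:28376784-28380253, minus strand) had 29.9, 20.2 and 59.1 CPM in HS3A8-high, 164, 149 and 231 CPM in HS3A8-low and 125, 82.4 and 88.6 CPM in the control. It was the only tested member for which none of the 9 libraries crossed into the range of another group. Replicate 3 was the highest library in both sorted fractions. The log2 fold change of HS3A8-high over HS3A8-low was -2.35 (SE 0.395, adjusted p = 0.0312), and -2.65 (adjusted p = 0.00295) without both number 3 libraries. Small parts of Dusp1, Ppp1r15a and Zfp36, 0.3%, 0.4% and 3.6% of their exonic bases, overlap a gene on the opposite strand. Whether counting used the strand is not given in the sources used here.

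**Figure D1:**
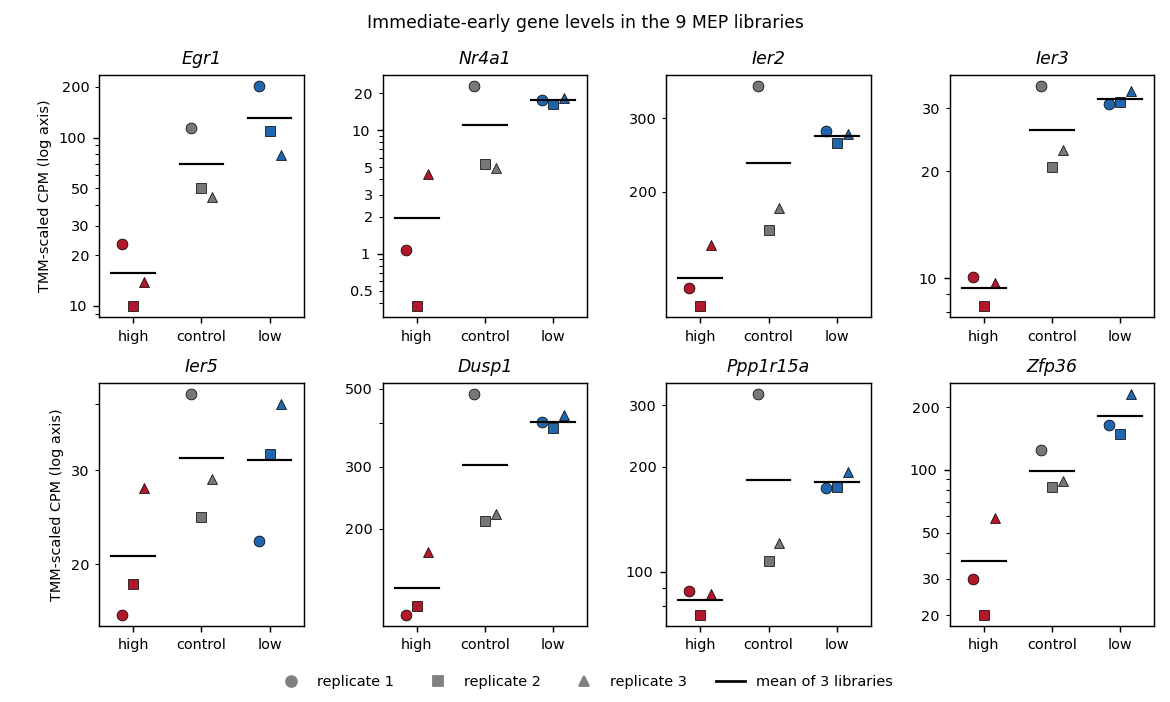
Level of the 8 members above the count filter in each library, in TMM-scaled CPM on a log axis that differs between panels. Point shape gives the replicate number and the line the mean of 3 libraries, and control replicate 1 (grey circle) is the highest control library in all 8 panels.

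On the scale of CPM per kilobase of the principal transcript, mean levels in HS3A8-low MEPs ran from Dusp1 (202) and Ier2 (179) through Zfp36 (65.0), Ppp1r15a (64.2), Egr1 (29.2) and Ier3 (28.2) to Ier5 (9.59) and Nr4a1 (6.86). The libraries of Zfp36 and Ppp1r15a, of Egr1 and Ier3, and of Ier5 and Nr4a1 overlapped on this scale, so these neighbours in the order were not separated. In HS3A8-high MEPs the order was Ier2 (81.7), Dusp1 (68.1), Ppp1r15a (29.7), Zfp36 (13.0), Ier3 (8.27), Ier5 (6.33), Egr1 (3.50) and Nr4a1 (0.767). There the libraries of Ier2 and Dusp1, of Zfp36 and Ier3, of Ier3 and Ier5, and of Ier5 and Egr1 overlapped, so only Ppp1r15a and Nr4a1 were separated from the genes next to them.

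Between the sorted fractions, 6 of the 8 tested members were lower in HS3A8-high at an adjusted p under 0.05 (Egr1, Ier2, Ier3, Dusp1, Ppp1r15a and Zfp36), and none was higher. In the same test 3.21% of the 11791 genes were lower in HS3A8-high. With the replicate number as a block, 8 of the 8 were lower, against 8.27% of all genes. The groups did not overlap for 7 of the 8, with HS3A8-high lower, as for 15.7% of all genes. The median log2 fold change was -1.70 over the tested members and -0.03 over all genes tested. Bulk counts cannot tell fewer cells that express a gene from less of its RNA per cell.

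The size of the difference varied between members. Within the 3 pairs of libraries with the same number, HS3A8-low was higher in 24 of 24 gene and pair combinations, and at least 2-fold higher in 19. The ratio of HS3A8-low to HS3A8-high was 5.71 to 10.9 for Egr1, 4.17 to 43.3 for Nr4a1 and 3.91 to 7.41 for Zfp36. The value of 43.3 rests on 5 counts of Nr4a1 in HS3A8-high replicate 2, near the limit, so its size is uncertain. It was 3.08 to 3.74 for Ier3, 2.46 to 3.51 for Dusp1, 1.85 to 2.46 for Ier2 and 1.97 to 2.32 for Ppp1r15a. For Ier5 it was 1.38 to 1.75. The largest ratios thus belonged to Egr1, Nr4a1 and Zfp36. The ratio was smallest in the number 3 pair for these genes and also for Ier2 and Dusp1. Each of the 8 fold changes kept its sign when any single library was left out, with log2 values from -4.57 to -0.41. The number of members past the threshold then ranged from 0 to 7. It was 0 without HS3A8-low replicate 2, a fit in which 0 of 12194 genes passed and 1900 had an unadjusted p under 0.05. Leaving out replicate 1 gave 3, whether that of HS3A8-high (0.335% of all genes) or that of HS3A8-low (0.456%). The highest count, 7, came without HS3A8-high replicate 3 (3.55%).

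**Figure D2:**
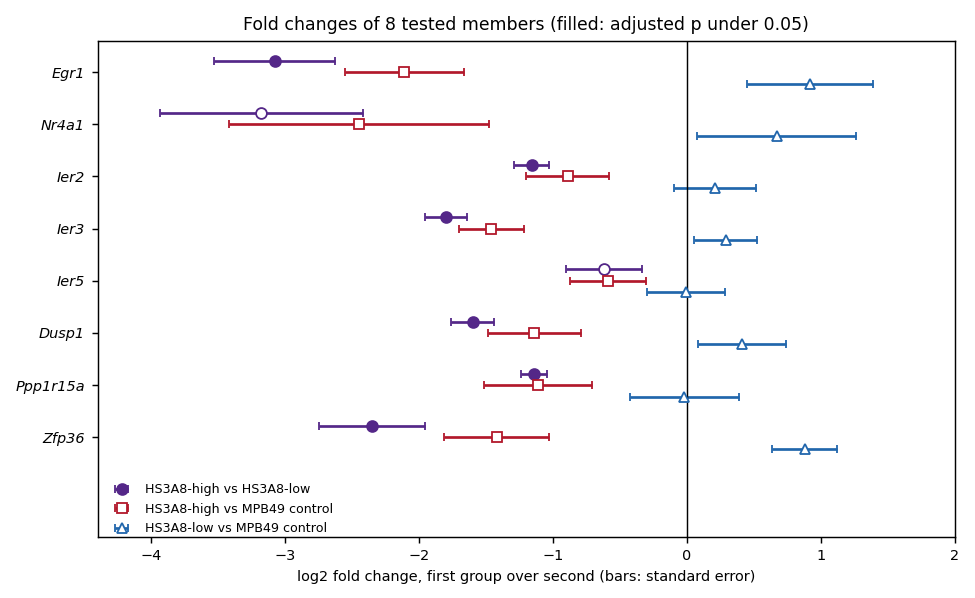
Log2 fold change of the 8 tested members in the 3 comparisons, with filled points for an adjusted p under 0.05. Bars are the standard error derived from the F statistic of the fit. Between the fractions (purple) 6 points are filled and all lie below 0, and no comparison with the control (red and blue) has a filled point.

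Against the control, the members had log2 fold changes from -2.45 to -0.59 in HS3A8-high, and 0 of the 8 passed the edgeR test. An unadjusted p under 0.05 was found for 7 of the 8, and for 562 of the 11486 genes tested. In that direction 0.0174% of all genes passed. DESeq2 called 3 members lower (Egr1, Ier3 and Zfp36), against 0.811% of 17636 genes with a p-value. Shares given with DESeq2 take in genes under the count filter of the edgeR test, so their base is larger than the 11486 genes here. Voom with quality weights called 2 (Egr1 and Ier3), against 0.853%. The groups did not overlap for 7 of the 8, the exception being Ier5, whereas 7.19% of all genes were lower in HS3A8-high without overlap. The largest differences were those of Nr4a1 (log2 fold change -2.45, SE 0.972, adjusted p = 0.733), Egr1 (-2.11, SE 0.447, adjusted p = 0.383), Ier3 (-1.46, SE 0.241, adjusted p = 0.213) and Zfp36 (-1.42, SE 0.392, adjusted p = 0.628). Without control replicate 1 these were -1.37, -1.57, -1.21 and -1.23, and 0 members passed, against 0.0424% of all genes.

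Log2 fold changes of HS3A8-low over the control ran from -0.02 (Ppp1r15a) to 0.92 (Egr1), and 0 of the 8 members passed. No gene of 11878 did (0%), while 673 had an unadjusted p under 0.05, Zfp36 alone among the members. Zfp36 was also the only member whose groups did not overlap (log2 fold change 0.88, SE 0.242, adjusted p = 0.711), against 7.91% of all genes that were higher in HS3A8-low without overlap. DESeq2 called 0 members, and 0.504% of 18054 genes with a p-value, higher in HS3A8-low. The size of these values depended on control replicate 1. Without it the median log2 fold change of the members was 0.78 in place of 0.35, and those of Nr4a1 (1.78, SE 0.223), Egr1 (1.48, SE 0.394) and Dusp1 (0.90, SE 0.0976) were the largest besides Zfp36 (1.08, SE 0.204), with adjusted p from 0.184 to 0.418. Voom with quality weights, which gives less weight to libraries that scatter more, called 5 members higher in HS3A8-low (Egr1, Nr4a1, Ier2, Dusp1 and Zfp36), against 2.25% of all genes. Both control comparisons share the same 3 control libraries.

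The 3 control libraries did not hold the same place. Control replicate 1 was above both other control libraries for 8 of the 8 members, as for 44.2% of all genes. Its level over the mean of the other 2 was highest for Nr4a1 (4.53-fold), Ppp1r15a (2.81-fold), Egr1 (2.41-fold) and Dusp1 (2.24-fold), and lowest for Zfp36 (1.46-fold). On the log2 scale, with the mean of HS3A8-high at 0% and that of HS3A8-low at 100%, control replicate 1 stood at a median of 113% over the members, from 79.1% (Zfp36) to 175% (Ier5 and Ppp1r15a). It was at or above the mean of HS3A8-low for 6 members and below it for Egr1 (97.0%) and Zfp36. Control replicate 2 stood at a median of 50.7%, from 33.5% (Ppp1r15a) to 64.5% (Ier3). Control replicate 3 stood at a median of 52.3%, from 45.5% (Dusp1) to 86.3% (Ier5). In control replicates 2 and 3, all 8 members thus lay inside the interval between the means of the fractions. The mean level rose from HS3A8-high through the control to HS3A8-low for 6 of the 8 members, as for 20.3% of all genes, and the exceptions were Ier5 and Ppp1r15a, whose control mean included the high value of replicate 1. Control replicate 1 also had the highest share of ribosomal protein counts and of mitochondrial counts (0.55%, against 0.15% to 0.33% in the other libraries). The part of either share in the level of the members was not tested.

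**Figure D3:**
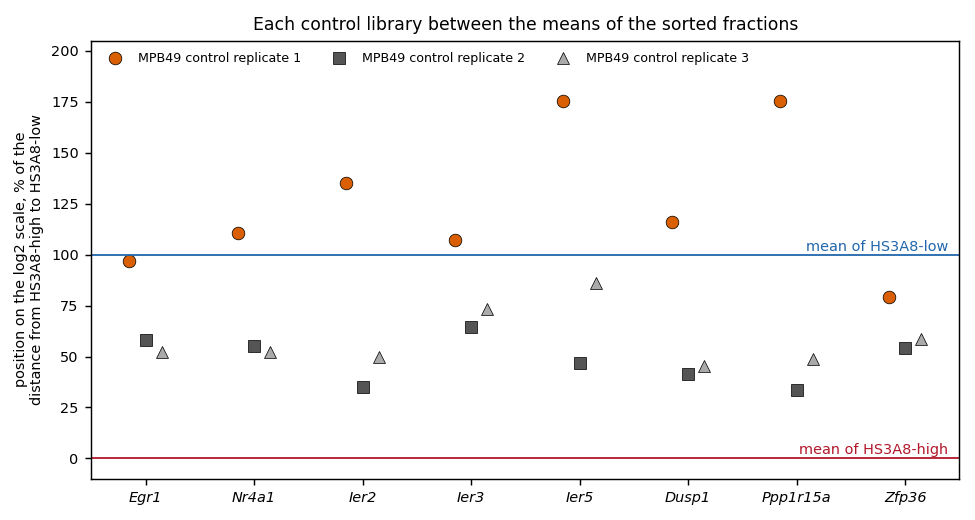
Position of each control library between the mean of HS3A8-high (0%) and that of HS3A8-low (100%), as a share of their distance on the log2 scale. Control replicate 1 stands between 79.1% and 175%, and control replicates 2 and 3 between 33.5% and 86.3%.

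The relatives of the members did not all follow them. Of 17 listed paralogs, 12 were tested and 3 were lower in HS3A8-high, all of them MAP kinase phosphatases. Dusp2 fell to 11.8 ± 2.88 CPM in HS3A8-high from 56.9 ± 9.31 in HS3A8-low (n = 3), and its log2 fold change was -2.29 (adjusted p = 0.00712). Dusp5 had 2.41 ± 1.46 and 10.9 ± 0.169 CPM (-2.20, adjusted p = 0.0399), and Dusp6, a cytoplasmic phosphatase, 22.5 ± 2.91 and 44.6 ± 2.67 CPM (-1.01, adjusted p = 0.0223). The other DUSP genes tested had log2 fold changes of -0.93 (Dusp10), -0.75 (Dusp8), -0.43 (Dusp9), 0.09 (Dusp7) and 0.11 (Dusp16) and did not pass. Zfp36l2 had -0.55 (adjusted p = 0.174), Zfp36l1 0.17 (adjusted p = 0.668) and Ppp1r15b, the constitutive counterpart of Ppp1r15a, 0.09 (adjusted p = 0.892). The median over the tested paralogs was -0.49.

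The AP-1 genes, which encode the other main class of immediate-early transcription factors, were lower in HS3A8-high for 4 of 7 tested and higher for none. Jun had 120, 116 and 146 CPM in HS3A8-high, 364, 297 and 342 CPM in HS3A8-low and 516, 180 and 222 CPM in the control. Its log2 fold change between the fractions was -1.42 (SE 0.125, adjusted p = 0.00712). For Jun, control replicate 1 was above every library of both fractions, as it was for Nr4a1, Ier2, Ier3, Ier5, Dusp1 and Ppp1r15a but not for Egr1 and Zfp36. Junb (-1.31, adjusted p = 0.00868), Fos (-1.08, adjusted p = 0.0196) and Jund (-0.83, adjusted p = 0.0257) were also lower, and the median of the list was -1.02.

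Of 34 further immediate-early genes, 28 were tested, 7 were lower in HS3A8-high, 0 were higher, and the median was -1.67. The lowest p-values were those of Cited2, a cofactor of CBP and p300 (-1.25, adjusted p = 0.0135), Btg2, an antiproliferative gene (-2.51, adjusted p = 0.0162), Csrnp1 (-3.13, adjusted p = 0.0243) and Nfkbia, the inhibitor of NF-κB (-0.67, adjusted p = 0.0253). With the replicate block 13 of the 28 were lower. The most abundant genes of this list were Myc (765 ± 65.5 CPM in HS3A8-high, 711 ± 77.0 in HS3A8-low, n = 3, log2 fold change 0.08, adjusted p = 0.731) and Mcl1 (194 ± 13.1 and 221 ± 14.5 CPM, -0.22, adjusted p = 0.252).

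Factors that act upstream formed a further list. Of 24 genes for MAP kinases and their kinases, serum response factor, its cofactors, CREB factors and the NAB corepressors of EGR proteins, all tested, 1 was lower in HS3A8-high, Elk3 (-2.18, adjusted p = 0.0319), a ternary complex factor of serum response factor. With the replicate block 3 were lower. The median was -0.15, and Mapk14, a kinase of the p38 family, had 0.05 (adjusted p = 0.846). Among 15 tested genes of the integrated stress response, the pathway in which Ppp1r15a acts, only Ddit4, an inhibitor of mTORC1, was lower (-1.60, adjusted p = 0.0294), and the median was 0.12. The most abundant of them, Hspa5 and Ppp1ca, had -0.10 (adjusted p = 0.848) and -0.09 (adjusted p = 0.754). Heat shock genes had the opposite sign where they passed. Of 12 tested, 2 were higher in HS3A8-high, Hspd1 (0.36, adjusted p = 0.0363) and Hsp90aa1 (0.36, adjusted p = 0.0424), 5 with the replicate block, 0 were lower in either fit, and the median was 0.17. The most abundant, Hspa8 and Hsp90ab1, had 0.20 (adjusted p = 0.565) and 0.23 (adjusted p = 0.0735). In both comparisons with the control, 0 genes of these lists passed the edgeR test.

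**Figure D4:**
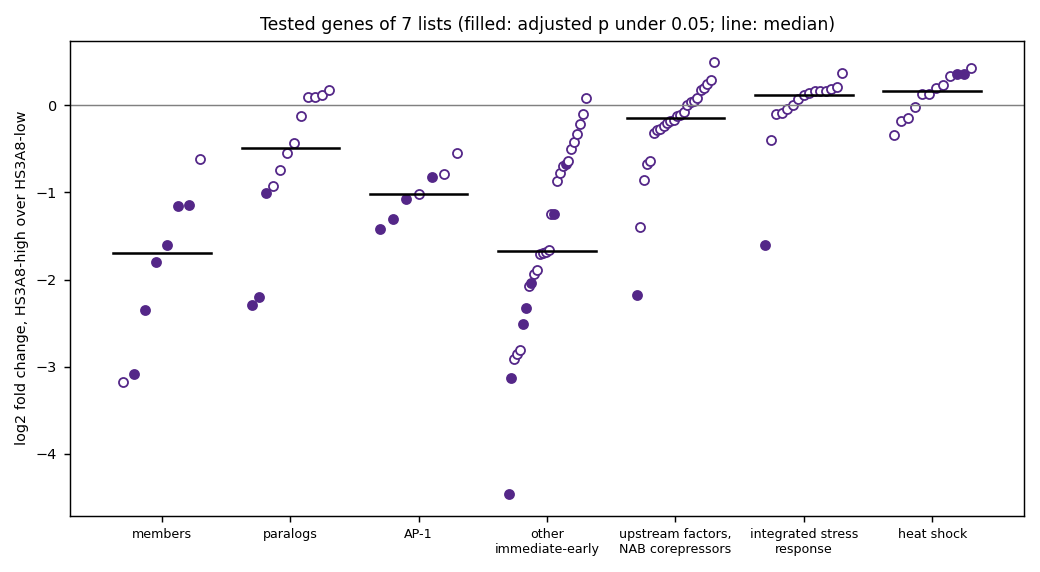
Log2 fold change of HS3A8-high over HS3A8-low for each tested gene of 7 lists, filled for an adjusted p under 0.05, with the median of each list as a line. The medians are -1.70 for the members, -1.02 for AP-1 and -1.67 for other immediate-early genes, and between -0.49 and 0.17 for the other lists.

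Among marker lists of cell types, the megakaryocyte, stem and progenitor, and T and NK cell lists held genes that were lower in HS3A8-high. Erythroid markers had the opposite sign where they passed. No granulocyte-monocyte, basophil and mast cell or B cell marker passed the edgeR test. The gate left out lineage-positive and CD34+ cells by surface staining, whereas Cd34 mRNA was still counted in every library. HS3A8-low libraries had 28.1, 61.6 and 73.7 CPM of Cd34, HS3A8-high libraries 3.26, 0.827 and 11.0 CPM, and control libraries 15.3, 42.3 and 40.2 CPM. Its log2 fold change between the fractions was -3.45 (adjusted p = 0.0701, edgeR test), with an adjusted p of 0.0178 under the replicate block. The summed level of 15 erythroid markers was 15045 to 16006 CPM in HS3A8-high, 11525 to 12984 CPM in HS3A8-low and 14112 to 14910 CPM in the control. Car1 and Car2 made up 70.7% to 73% of this sum. Of the 15, 1 was higher in HS3A8-high (Car1, log2 fold change 0.36, adjusted p = 0.0257), 4 with the replicate block, and 0 were lower. The estimates were above 0 for 8 and below 0 for 7. The erythroid transcription factors Gata1 and Klf1 were at 368 CPM or more and 539 CPM or more in every library. The 12 megakaryocyte markers summed to 40.0 to 63.6 CPM in HS3A8-high and 278 to 550 CPM in HS3A8-low. In the control libraries they summed to 304, 206 and 190 CPM. Of 11 tested, 7 were lower in HS3A8-high, among them Itga2b (-4.01, adjusted p = 0.00712) and Pf4 (-4.29, adjusted p = 0.00712). The megakaryocyte sum was therefore lowest in HS3A8-high without overlap with the other groups, as was the sum of the members. The sums differed in control replicate 1. There the megakaryocyte sum was below HS3A8-low replicates 1 and 2, whereas the member sum, 1501 CPM, was above all HS3A8-low libraries (1161 to 1293 CPM). Stem and progenitor markers, of which 2 of 8 tested were lower (Meis1 and Hlf), summed to 177, 163 and 875 CPM in HS3A8-high, 591, 598 and 1958 CPM in HS3A8-low and 251, 440 and 379 CPM in the control. The myeloid gene Mpo made up 712 CPM of the sum in HS3A8-high replicate 3 and 1608 CPM in HS3A8-low replicate 3. Without Mpo, left out after its values were seen, the sums were 161 to 171 CPM in HS3A8-high, 540, 464 and 350 CPM in HS3A8-low and 230 to 325 CPM in the control. Most of each of these sums came from 1 other gene of the list, so they do not describe the list evenly. The estimates between the fractions were below 0 for 8 of the 8 tested genes.

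T and NK cell markers summed to 4.21 to 33.4 CPM in HS3A8-high, 186 to 227 CPM in HS3A8-low and 112, 63.4 and 52.8 CPM in the control, with 3 of 9 tested lower in HS3A8-high (Tcf7, Trbc1 and Nkg7). The defining marker Cd3e was at 0 in HS3A8-high replicates 1 and 2 and at most 1.69 CPM elsewhere. Trbc1 had 24.5, 6.57 and 3.81 CPM in the control, so control replicate 1 was the highest control library for this gene too. The 14 granulocyte and monocyte markers summed to 19.0, 10.5 and 1317 CPM in HS3A8-high, 116, 172 and 3596 CPM in HS3A8-low and 101, 108 and 89.1 CPM in the control, and 0 of 11 tested passed (7 lower with the block). Library number 3 of both fractions was highest by far. In HS3A8-high, replicate 3 was also the highest library for Nr4a1, Ier2, Ier5, Dusp1 and Zfp36. Without both number 3 libraries, 7 of the 8 members were lower in HS3A8-high, as were 6.01% of all genes, with log2 fold changes of -3.24 for Egr1, -4.52 for Nr4a1, -1.28 for Ier2, -1.76 for Ier3, -1.75 for Dusp1, -1.10 for Ppp1r15a and -2.65 for Zfp36. B cell markers summed to 10.3, 3.08 and 40.2 CPM in HS3A8-high and 42.9, 44.3 and 114 CPM in HS3A8-low, and basophil and mast cell markers to 1.26, 2.48 and 68.0 CPM and to 21.6, 23.3 and 142 CPM, with 0 of 3 tested in each list past the threshold. In the control, B cell markers summed to 32.6, 23.5 and 24.3 CPM, and basophil and mast cell markers to 26.1, 8.35 and 8.44 CPM. The part of megakaryocyte, T and NK cell or B cell transcripts in the level of the members was not tested.

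**Figure D5:**
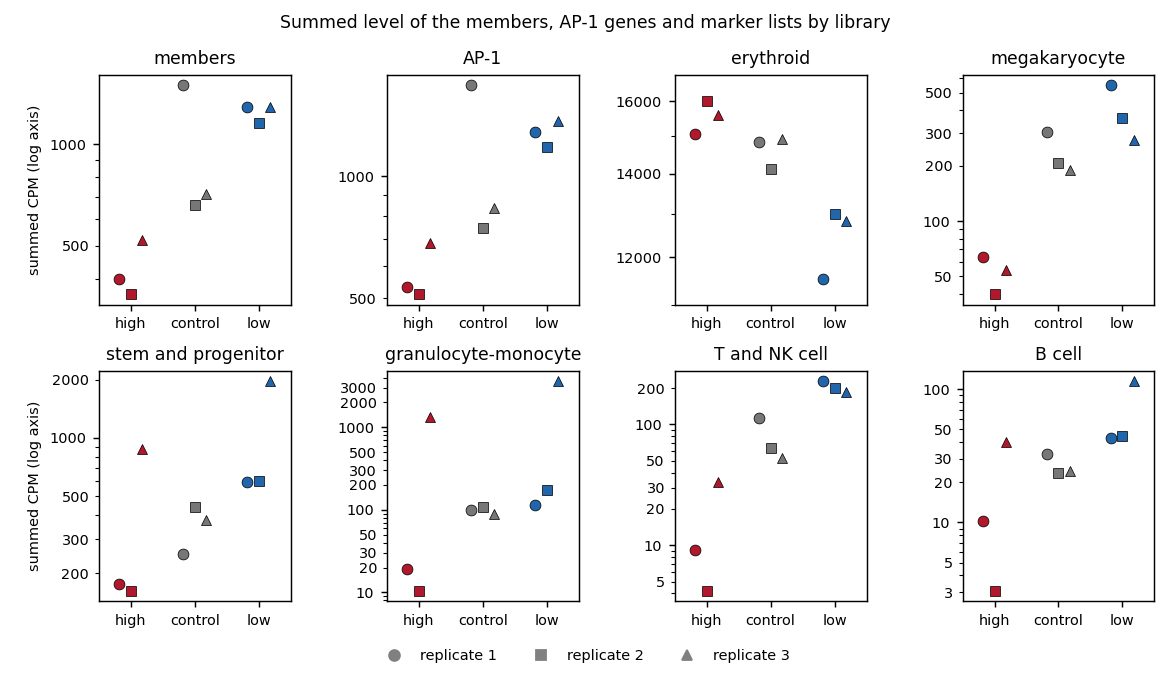
Summed level of the members, the AP-1 genes and 6 marker lists in each library, in CPM on log axes that differ between panels, with the replicate number as point shape. Megakaryocyte and T and NK cell markers are lowest in HS3A8-high like the members, and granulocyte-monocyte markers are highest in library number 3 of both fractions.

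The members shared features that their choice by name did not use. Of the 10 principal transcripts, 8 had at most 2 exons, as did 6.64% of 11158 expressed protein-coding genes, and the median gene span was 4316 bases against 23718. The letters ATTTA, the core of an AU-rich element, stood at least 1 time after the stop codon in 9 of the 10 (68.1% of genes) and at least 3 times in 7 (36.4%). The longer TTATTTATT, the preferred site of the Zfp36 protein, stood there in Dusp1, Ppp1r15a and Zfp36 (7.5% of genes). Transcript GC content was 51.3% to 60.9% in the members, and the median of all genes was 50.1%.

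Across the 9 libraries the tested members resembled each other. Pearson's r between pairs of members ranged from 0.516 to 0.989 with a median of 0.9 over 28 pairs, as a description of libraries that share 3 groups. Dusp1 (0.99) and Ier2 (0.989) were closest to the mean profile of the members, and Ier5 (0.822) was farthest from it. The profile includes each of these genes, which raises their r, so these values only rank the members. Outside the members, among the 9340 genes whose mean was 5 CPM or more, the profile was most like those of Gmfg (0.993), H2-K2 (0.991), Btg2 (0.989), Fos (0.987), H2-T23 (0.987), Matk (0.979), Trbc1 (0.978) and Ctso (0.977). Btg2 and Fos are immediate-early genes themselves, H2-K2 and H2-T23 belong to the class I histocompatibility genes, and Trbc1 encodes a constant region of the T cell receptor. H2-K2 belongs to a family of similar genes that can share reads, so its value is uncertain.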

How the data were processed

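RNA of 9 libraries of sorted MEPs was sequenced. The authors deposited raw read counts per gene, whole numbers without normalization. The submitters' processing notes name STAR 2.5, HTSeq 0.6.1 and mm10; the annotation release and the strand setting are not given in the sources used here. The paper names DESeq2 for its own comparison. Here 34490 of 35275 identifiers matched a symbol of GENCODE M21 (GRCm38).

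Counts were tested in R 4.3.3 with edgeR 4.0.16 (quasi-likelihood), TMM, filterByExpr, only the groups compared in each fit, Benjamini-Hochberg adjustment over all genes and an adjusted p under 0.05. Levels per library are CPM with TMM over all 9 libraries, whereas fold changes come from each comparison's own fit. The edgeR fit reports no standard error. The SE given is the absolute log2 fold change divided by the square root of the F statistic of the test. Alternatives were DESeq2 1.42.0 and its size factors, voom with quality weights (limma 3.58.1), the replicate block, each library left out, 1 fit of all libraries, no filter, and a filter at a mean count of 10. Leaving out both number 3 libraries was chosen after seeing the data. Scripts were tested on simulated counts.

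Replicate numbers pair the sorted fractions: over 12108 genes, a library's deviation from its group mean correlated with that of the same-numbered library of the other fraction (r of 0.325 to 0.509), and less with the others (-0.469 to 0.123). The study describes individual mice but does not say that both fractions came from the same mouse. Control numbers did not pair with either fraction.

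The members and gene lists were chosen with earlier results of these data known. All members are named; from each list, the genes past the threshold (up to 4 by p) and the 2 most abundant; paralogs where tested; and the 8 genes most like the members' mean profile of log2 CPM (prior count 2). Marker genes are mostly given as sums. The values of 1 listed gene are not reported here. Transcript features came from GENCODE and promoter windows from RefSeq.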

Additional observations from a re-analysis of the deposited data

How the results depend on the processing

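Between the sorted fractions, all 8 fold changes kept their direction under all 14 alternatives. The number of members past the threshold was 6 in the edgeR test (3.21% of all genes lower). It was 4 with all 9 libraries in 1 fit (2.62%) and 7 with DESeq2 (5.11% of 18016 genes) or voom (9.02%). With the replicate block it was 8 (8.27%), and with 1 library left out 0 to 7 (0% to 3.55%). Genes past the threshold over the whole table numbered 451 in the edgeR test, 1224 with DESeq2, 1490 with voom, 1367 with the replicate block, 748 without both number 3 libraries and 0 to 439 with 1 library left out. The adjusted p of Ier3, Dusp1, Egr1, Ppp1r15a, Zfp36 and Ier2 each rose above 0.05 in at least 1 of these settings, reaching 0.0685 to 0.188, so the call was lost there. HS3A8-high with the control gave 0 members past the threshold in the edgeR test. It gave 3 with DESeq2 (0.811% of 17636 genes lower), 2 with voom (0.853%) and 1 with all 9 libraries in 1 fit (0.264%). It gave 0 with any library left out or with the replicate block. HS3A8-low with the control gave 0, and 5 with voom, and the members without overlap of the groups numbered 2 in place of 1 when CPM were scaled by library total. In that comparison the log2 fold change of Ier5 (-0.01) turned to 0.19 with voom, to 0.01 without a filter, and ranged from -0.20 to 0.23 with 1 library left out. That of Ppp1r15a (-0.02) turned to 0.57 with voom, 0.01 without a filter and 0.17 with the replicate block, and ranged from -0.29 to 0.66 with 1 library left out. Without control replicate 1 the values were 0.23 for Ier5 and 0.66 for Ppp1r15a. The cause of these shifts was not tested. Because control numbers did not pair with those of the fractions (r from -0.345 to 0.0312), the block there groups libraries by number only. It left 0 members past the threshold in both control comparisons. Depth limits Egr2 and Egr3, which lie near the limit that a count of 0 allows.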
